A study of Mus musculus with 10 samples.

Results

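The Schlafen family genes are a cluster of interferon-inducible genes on mouse chromosome 11. Members were taken by symbol (Slfn1, Slfn2, Slfn3, Slfn4, Slfn5, Slfn8 and Slfn9), which found 7 genes among the 54532 genes of the deposited count table. All 7 passed the filter on low counts. They lie between positions 82951349 and 83215154 of chromosome 11 in mm10, a span of 263.8 kb.

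The data were bulk RNA sequencing libraries of whole kidneys after unilateral ureteral obstruction (UUO), a model in which tying the ureter brings on tubular damage, inflammation and fibrosis. The comparison asks which transcripts differ with dimethyl malonate (DMM), an ester that is converted to malonate and so inhibits succinate dehydrogenase of the tricarboxylic acid cycle. The control group was 5 male wild-type C57BL/6 mice given PBS, and the DMM group was 5 such mice given 40 mg/kg DMM into the peritoneum on every other day. All 10 mice were operated on the left ureter at an age of 8 weeks and killed 14 days later, and each gave 1 library. No kidney without obstruction was analysed here. Total counts ran from 16457495 to 18078777 in the control libraries and from 15722527 to 19475833 in the DMM libraries.

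Several libraries stood apart from the rest of their group. When the group means that the authors deposited were written as weighted sums of the counts, weights of 0 were found for control replicate 3 and for DMM replicate 1, and weights above 0 for 8 libraries. The study's methods describe a comparison of all replicates and mention no library left out, and the sources used here give no reason for the weights of 0. Results are therefore given over all 10 libraries and over these 8, and the second set is no independent check of the first. DMM replicate 4 had the fewest genes with a count, 20029 against 22898 to 24083 in the other 9 libraries, and the highest share of counts on the mitochondrial genome, 5.62%. The 8 summed proximal tubule markers stood at 3797 CPM (counts scaled to library size with TMM factors) in control replicate 3, against 495 to 1420 CPM in the other 4 controls. They stood at 979 CPM in DMM replicate 1 against 2907 to 4089 CPM in the other 4 DMM libraries, so that both libraries without weight lay nearer the opposite group in these markers. The sum of DMM replicate 4, 3877 CPM, was mostly Lrp2 at 2504 CPM, and 5 of its 8 markers (Slc34a1, Slc5a2, Slc22a6, Slc22a8 and Miox) lay below their control means. In that library levels moved with transcript length and GC share, as described below, and these values are uncorrected.

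Schlafen proteins share a core domain that in several members binds or cuts transfer RNA, and the long members also carry a helicase-like region. The genes are known from T cells, monocytes and macrophages, where type I interferon and bacterial products induce several of them, and they are linked to lymphocyte quiescence, myeloid cell activation and antiviral defence. In obstructed kidneys such immune cells enter the tissue between the tubules.

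Slfn1, Slfn2 and Slfn8 fell in the DMM kidneys over the 8 libraries, to levels 5.85-fold, 3.76-fold and 3.73-fold lower than in control, while no member was called over all 10. In DMM replicates 2, 3 and 5 each of the 7 genes lay below every control library. DMM replicate 1 lay inside the control range for 5 genes and above it for Slfn3 and Slfn5, and DMM replicate 4 was low for some members and at the control level for others. Libraries of whole tissue cannot tell fewer Schlafen-expressing cells apart from less RNA per cell.

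Calls came from edgeR's quasi-likelihood F test across all tested genes and needed a fold change over 1.5 together with an adjusted p (Benjamini-Hochberg) below 0.05. Over all 10 libraries 0 of 7 members were called as lower, against 0% of the 16505 tested genes. DESeq2 and limma also called 0 members, though DESeq2 called 50 of all genes and gave Slfn2 an adjusted p of 0.0628. The exact permutation test could not call any, since its smallest p with 10 libraries, 0.00794, was too large to pass the adjustment here. At an unadjusted p under 0.05 with the same fold, 4 of 7 members passed as lower (Slfn1, Slfn2, Slfn4 and Slfn8), against 4.11% of all tested genes. The 8 libraries had 3 of 7 members called as lower, against 3.56% of 16550 tested genes. The median log2 fold change of the members was -1.11 over 10 libraries and -1.90 over 8, where that of all tested genes was 0.02 and 0.02. Without DMM replicate 1 alone, the same 3 members were called among 9 libraries, against 2.6% of genes.

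Slfn1 and Slfn2 encode the short Schlafen proteins. Slfn2 is needed for quiescence of T cells and monocytes and had the smallest SE of the 7 members over the 8 libraries. Its level was 135, 128, 119.9, 158 and 158 CPM in control replicates 1 to 5 and 136, 40.9, 38.5, 42.5 and 32.1 CPM in DMM replicates 1 to 5. DMM replicate 1 sat among the controls, and the other 4 DMM libraries were close to each other and far below. Mean levels were 139.8 ± 17.3 CPM in control and 58.0 ± 43.8 CPM in DMM (SD, n = 5). The log2 fold change was -1.27 ± 0.37 (SE) over 10 libraries with an edgeR adjusted p of 0.378. Over the 8 libraries it was -1.91 ± 0.13 with an edgeR adjusted p of 0.000123, or 3.76-fold lower.

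Slfn1, which slows T cell growth when overexpressed, had 39.2, 36.3, 33.6, 54.9 and 53.0 CPM in control replicates 1 to 5. In DMM replicates 1 to 5 it had 42.4, 7.31, 6.35, 13.5 and 4.19 CPM. The pattern was that of Slfn2, with DMM replicate 1 at the control level and DMM replicate 4 the highest of the low libraries. Over 10 libraries the log2 fold change was -1.56 ± 0.55 (SE), with an edgeR adjusted p of 0.387. Over 8 libraries it was -2.55 ± 0.34, with an edgeR adjusted p of 0.00401, and the 4 DMM libraries all lay under the lowest control.

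Slfn3 and Slfn4 are of intermediate length. Slfn4, a gene that macrophages raise strongly on activation, had 21.8, 12.5, 19.2, 198 and 35.2 CPM in control replicates 1 to 5 and 25.5, 3.15, 2.10, 12.9 and 2.92 CPM in DMM replicates 1 to 5. Control replicate 4 lay 9.68-fold above the median of the other controls, and DMM replicate 4 reached past the lowest control, so that the groups overlapped in both sets of libraries. Corrected for transcript length and GC share, as described below, DMM replicate 4 had 10.44 CPM, under the lowest control at 12.83 CPM. The spread of Slfn4 among controls, an SD of 1.55 in log2 CPM, was larger than that of 99.6% of tested genes. Its log2 fold change was -2.63 ± 0.93 (SE) over 10 libraries with an edgeR adjusted p of 0.387, and -3.67 ± 0.99 over 8 with an edgeR adjusted p of 0.0599. Without control replicate 4 the log2 fold change was -1.26 over 9 libraries and -2.15 over 7. Without DMM replicate 4 it was -4.63 over 7 libraries, with an edgeR adjusted p of 0.0129.

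For Slfn3, known from T cells and from differentiating enterocytes, control replicates 1 to 5 had 12.4, 12.1, 11.4, 15.7 and 12.0 CPM, and DMM replicates 1 to 5 had 17.3, 4.35, 3.0, 11.9 and 4.07 CPM. The highest value of all 10 belonged to DMM replicate 1, and DMM replicate 4 lay among the controls at just above the lowest of them. Over the 8 libraries the groups did not overlap, since DMM replicate 4 at 11.9 CPM lay just under the lowest control left, at 12.0 CPM. Over 10 libraries its log2 fold change was -0.65 ± 0.43 (SE) and over 8 it was -1.17 ± 0.40, with edgeR adjusted p of 0.567 and 0.126.

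Slfn5, Slfn8 and Slfn9 are the long members. Slfn8 had 69.5, 75.2, 54.8, 88.9 and 85.4 CPM in control replicates 1 to 5 and 88.0, 22.8, 15.8, 33.4 and 13.6 CPM in DMM replicates 1 to 5. As for Slfn1 and Slfn2, DMM replicate 1 lay within the controls and the other 4 DMM libraries below all of them. The log2 fold change was -1.11 ± 0.46 (SE) over 10 libraries with an edgeR adjusted p of 0.428, and -1.90 ± 0.27 over 8 with an edgeR adjusted p of 0.00531.

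Slfn9, the nearest relative of Slfn8, had 68.2, 67.0, 60.6, 89.7 and 75.4 CPM in control replicates 1 to 5. In DMM replicates 1 to 5 it had 79.8, 15.7, 19.6, 95.7 and 10.6 CPM. DMM replicate 4 was the highest of all 10 libraries, and replicates 2, 3 and 5 of the DMM group were lower than every control. Corrected for transcript length and GC share, as described below, DMM replicate 4 was no longer the highest. It then had 62.6 CPM, beside 62.16 CPM in the lowest control and 83.3 CPM in DMM replicate 1. The log2 fold change of Slfn9, without that correction, was -0.71 ± 0.55 (SE) over 10 libraries and -1.09 ± 0.62 over 8, with edgeR adjusted p of 0.609 and 0.358.

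Slfn5, an interferon-regulated member linked to growth control, was the one with the most reads. It had 309, 342, 274, 374 and 352 CPM in control replicates 1 to 5 and 379.5, 183, 147, 367 and 158 CPM in DMM replicates 1 to 5. DMM replicate 1 lay just above the controls, DMM replicate 4 among them, and the other 3 under their lowest value. Corrected for transcript length and GC share, as described below, DMM replicate 4 had 244.4 CPM, under the lowest control at 281.7 CPM. The log2 fold change of Slfn5, without that correction, was -0.42 ± 0.28 (SE) over 10 libraries and -0.69 ± 0.28 over 8, with edgeR adjusted p of 0.564 and 0.191.

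**Figure D1:**
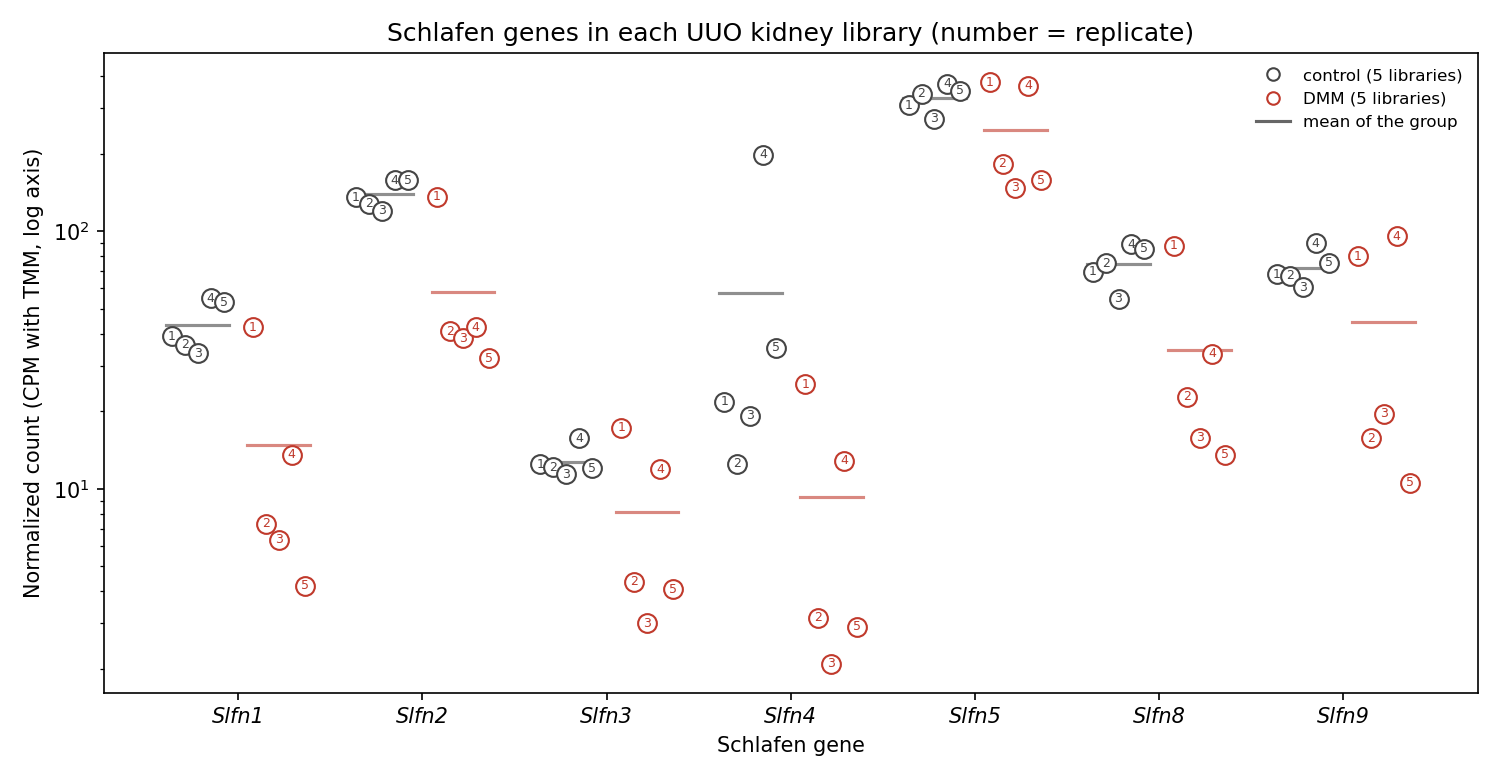
Normalized count (CPM with TMM, log axis) of the 7 Schlafen genes in each of the 5 control (grey) and 5 DMM (red) libraries. The number in a point is the replicate and the line is the mean of the group. DMM replicate 1 lies with or above the controls for every gene. DMM replicate 4 does so for Slfn5 and Slfn9, and lies just above the lowest control for Slfn3 and Slfn4. It lies below all controls for Slfn1, Slfn2 and Slfn8.

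Taken by overlap, 0 of 7 members had all 5 DMM libraries below all 5 controls, against 1.16% of tested genes. Within the 8 libraries 4 of 7 members did so (Slfn1, Slfn2, Slfn3 and Slfn8), against 10.6% of tested genes. The exact two-sided permutation test over the 8 libraries gave these 4 members the smallest p it can give, 0.0286, and an adjusted p of 0.142 over all genes. DESeq2 gave no p for Slfn9 over the 8 libraries and called 5 of the other 6 members, Slfn3 and Slfn4 being added, against 4.55% of the 20027 genes that it gave an adjusted p.

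The calls among the members depended on DMM replicate 4. Without it, the remaining 7 libraries called 7 of 7 members as lower, against 7.61% of genes. Slfn9 then had a log2 fold change of -2.29 with an edgeR adjusted p of 0.0001, and Slfn5 one of -1.08 with an edgeR adjusted p of 0.000119. That of Slfn3 was -1.78, with an edgeR adjusted p of 0.000278. Over 9 libraries, with DMM replicate 1 kept and DMM replicate 4 left out, 0 members were called. Relative to the median of the other 3 DMM libraries among the 8, DMM replicate 4 had 1.10-fold the level of Slfn2, 2.11-fold that of Slfn8, 2.13-fold that of Slfn1 and 2.32-fold that of Slfn5. The same ratio was 2.92 for Slfn3, 4.41 for Slfn4 and 6.10 for Slfn9. A ratio as high as that of Slfn9 was met in 0.503% of tested genes, whose median ratio was 0.967.

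In DMM replicate 4 the level of a gene moved with the length and base composition of its transcript. The median ratio to the other 3 DMM libraries was 0.593 among 1278 genes whose longest transcript has up to 1000 bases and 1.74 among 2114 genes over 6000 bases. It was 1.65 among 1053 genes of up to 40% GC and 0.592 among 2797 genes over 56% GC. The longest transcript has 1664 bases for Slfn2, 1864 for Slfn1, 2834 for Slfn3, 3958 for Slfn4, 4011 for Slfn8, 5769 for Slfn9 and 5979 for Slfn5, and the ratios of the members did not rise in that order. Each library was corrected for transcript length and GC share, a step decided on with the data in view, and the ratio was then lower for Slfn9 (3.75), Slfn4 (3.44), Slfn3 (2.82), Slfn8 (1.61) and Slfn5 (1.44) and higher for Slfn1 (2.41) and Slfn2 (1.59). With that correction 5 of 7 members were called over the 8 libraries, Slfn4 and Slfn5 being added, against 4.16% of genes, and 0 of 7 over all 10. What set this library apart was not tested.

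Levels can be set beside each other per length, as FPKM (fragments scaled by gene length and library size). In control kidneys the order was Slfn2 at 83.4 ± 10.5, Slfn5 at 51.8 ± 6.26, Slfn1 at 23.1 ± 5.30, Slfn8 at 18.2 ± 3.34, Slfn4 at 14.4 ± 19.9, Slfn9 at 12.0 ± 1.87 and Slfn3 at 3.71 ± 0.498 FPKM (SD, n = 5). Ranges did not overlap between Slfn2 and Slfn5, between Slfn5 and Slfn1, or between Slfn9 and Slfn3. They overlapped from Slfn1 through Slfn8 and Slfn4 to Slfn9, though Slfn1 lay above Slfn8 in 5 of 5 control libraries. Slfn4 owed its place to control replicate 4, since it lay above Slfn9 in 1 of 5 control libraries.

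In DMM kidneys Slfn5 led at 38.8 ± 18.2 FPKM, followed by Slfn2 at 34.7 ± 26.3 FPKM (SD, n = 5), and the ranges of all neighbours in the order overlapped. Slfn5 was above Slfn2 in DMM replicates 2 to 5, with ratios of FPKM of 1.17, 1.01, 2.27 and 1.30, and below it in DMM replicate 1 at 0.734. The ratio was 0.587 to 0.702 in the 5 controls. Between Slfn9 and Slfn8 the ratio was 0.605 to 0.758 in the controls and 0.622, 0.473, 0.848, 1.96 and 0.535 in DMM replicates 1 to 5. The pair thus kept to Slfn8 above Slfn9 in 9 of 10 libraries and was turned around in DMM replicate 4. Between Slfn1 and Slfn2 the ratio was 0.250 to 0.311 in the controls and 0.160, 0.147 and 0.117 in DMM replicates 2, 3 and 5, while DMM replicates 1 and 4 had 0.278 and 0.284. These ratios are a description without a test, and they are without the correction for transcript length and GC share. In DMM replicate 4 that correction lowered Slfn5 from 367 to 244.4 CPM and raised Slfn2 from 42.5 to 58.9 CPM. It moved Slfn9 from 95.7 to 62.6 CPM and Slfn8 from 33.4 to 27.2 CPM.

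Some members are close copies, so that reads can be hard to assign. The coding sequences of Slfn8 and Slfn9, 910 codons each, were 92.7% identical, those of Slfn3 and Slfn4 86.4%, and those of Slfn1 and Slfn2 65.8%. Of all 100-base stretches in a member's transcripts, the share also found in a transcript of another gene was 0% for Slfn1, 0.128% for Slfn2, 0.271% for Slfn4, 2.92% for Slfn3, 3.39% for Slfn8, 3.71% for Slfn9 and 6.40% for Slfn5. The most common partner was the pseudogene Slfn10-ps for Slfn8 and Slfn9 and the antisense gene Slfn5os for Slfn5. Whether counting took the strand into account is not given in the sources used here, so reads of Slfn5 and Slfn5os, and of Slfn2 and its antisense neighbour Gm20234, cannot be told apart. Slfn5os had at most 8 counts in any library and Gm20234 had 49 in all. With Slfn8 and Slfn9 summed into 1 count, the log2 fold change over the 8 libraries was -1.45 with an edgeR adjusted p of 0.110, so the call of Slfn8 was not kept. With Slfn3 and Slfn4 summed it was -2.85 with an edgeR adjusted p of 0.0670.

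Other genes named Slfn were outside the rule. The pseudogene Slfn10-ps, between Slfn8 and Slfn2, had 3.77 to 6.88 CPM in the controls and 5.12, 1.83, 1.93, 7.37 and 2.55 CPM in DMM replicates 1 to 5. Without the length and GC correction, DMM replicate 4 was its highest library, as for Slfn9. Slfn14, a member known from blood platelets and red cells, had 6 counts in all, and Slfnl1 had at most 2 counts in any library.

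Promoters are shown for the members whose sequence held a core of the interferon-stimulated response element. RefSeq promoters (GRCm38.p6) were found for all 7 members and cover 250 bases before to 50 after each listed start, on the gene's strand. The core of GAAA, any 2 bases and GAAA, read on both strands, was in those of Slfn5, Slfn8 and Slfn9, the 3 long members, and in 3.44% of all 32851 promoters. Its position was -155 for Slfn5, -48 for Slfn8 and -45 for Slfn9, counted from the start, and Slfn8 and Slfn9 held the same 10 bases, on the other strand. A further listed start of Slfn8 puts the same site at -136. The shorter run of AA, any 2 bases and GAAA, the binding core of interferon regulatory factors, which lies within the longer one, was in all 7 members and in 23.9% of all promoters. The letters of the gamma-activated site, TTC, any 3 bases and GAA, were in 0 of the 7 members and in 8.30% of all promoters. Among the members called over the 8 libraries, Slfn8 held the longer core, and Slfn1 and Slfn2 did not. Slfn5 and Slfn9 held it and were not called. A match describes letters and shows no binding, and its part in the Schlafen levels was not tested. In the lines that follow, capitals mark this longer core, or its complement read from the other strand, and the promoters lie at chr11:82951852-82952151 (plus strand), chr11:83020761-83021060 (minus strand) and chr11:82991781-82992080 (minus strand).
Slfn5: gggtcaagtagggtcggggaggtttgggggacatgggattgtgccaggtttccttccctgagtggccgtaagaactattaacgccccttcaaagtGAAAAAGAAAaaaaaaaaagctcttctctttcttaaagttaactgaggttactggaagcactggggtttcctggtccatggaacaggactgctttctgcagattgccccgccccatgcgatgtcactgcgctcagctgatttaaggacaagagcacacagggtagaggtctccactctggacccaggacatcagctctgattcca
Slfn8: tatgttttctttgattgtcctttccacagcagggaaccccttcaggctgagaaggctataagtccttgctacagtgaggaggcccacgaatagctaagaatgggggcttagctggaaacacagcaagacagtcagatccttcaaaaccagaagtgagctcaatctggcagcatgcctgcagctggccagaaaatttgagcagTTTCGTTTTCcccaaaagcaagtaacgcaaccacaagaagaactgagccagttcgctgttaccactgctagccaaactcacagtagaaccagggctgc
Slfn9: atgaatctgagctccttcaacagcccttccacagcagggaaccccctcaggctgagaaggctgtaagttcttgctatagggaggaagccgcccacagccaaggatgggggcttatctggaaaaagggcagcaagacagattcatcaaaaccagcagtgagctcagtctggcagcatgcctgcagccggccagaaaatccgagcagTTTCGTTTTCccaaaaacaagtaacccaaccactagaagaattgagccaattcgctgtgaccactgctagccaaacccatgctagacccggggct

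Of 60 other genes of the table within 500 kb of either end of the cluster, 25 were tested over 10 libraries and 0 were called. The 8 libraries had 24 tested and 3 called, all lower, against 3.56% of all tested genes, with a median log2 fold change of -0.24 where the members had -1.90. The nearest tested gene before Slfn5, Unc45b, a myosin chaperone, had 8.26 ± 0.562 CPM in control and 8.94 ± 1.78 CPM in DMM (SD, n = 5), with a log2 fold change of 0.11 over 10 libraries and 0.13 over 8 and edgeR adjusted p of 0.781 and 0.730. The nearest after Slfn3, AI662270, had 8.53 ± 1.41 and 4.85 ± 1.98 CPM, and was called over the 8 libraries with a log2 fold change of -1.17 and an edgeR adjusted p of 0.00926.

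Farther along lies a group of chemokine genes, whose products draw leukocytes into tissue. Ccl9 had 66.5 ± 13.4 CPM in control and 37.6 ± 14.3 CPM in DMM (SD, n = 5) and Ccl6 had 71.3 ± 21.0 and 39.7 ± 12.3 CPM. Both were called over the 8 libraries, with log2 fold changes of -1.13 and -1.08 and edgeR adjusted p of 0.00953 and 0.0343. Ccl5, a T cell product, had 16.5 ± 4.28 and 8.34 ± 4.37 CPM, and its log2 fold change of -1.24 over the 8 libraries had an edgeR adjusted p of 0.0787. Ccl3 and Ccl4, attractants made by macrophages and T cells, were not called, with log2 fold changes of -0.37 and -1.17 over the 8 libraries and edgeR adjusted p of 0.859 and 0.355. Their levels in DMM replicate 4, 13.47 and 5.07 CPM, lay above the control means of 5.02 ± 5.50 and 3.94 ± 1.41 CPM (SD, n = 5). Over all 10 libraries the edgeR adjusted p was 0.378, 0.378, 0.387, 0.923 and 0.556 for Ccl9, Ccl6, Ccl5, Ccl3 and Ccl4. Without DMM replicate 4, the 7 libraries called 9 neighbours, counted in either direction like the 2410 of all 16828 tested genes.

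**Figure D2:**
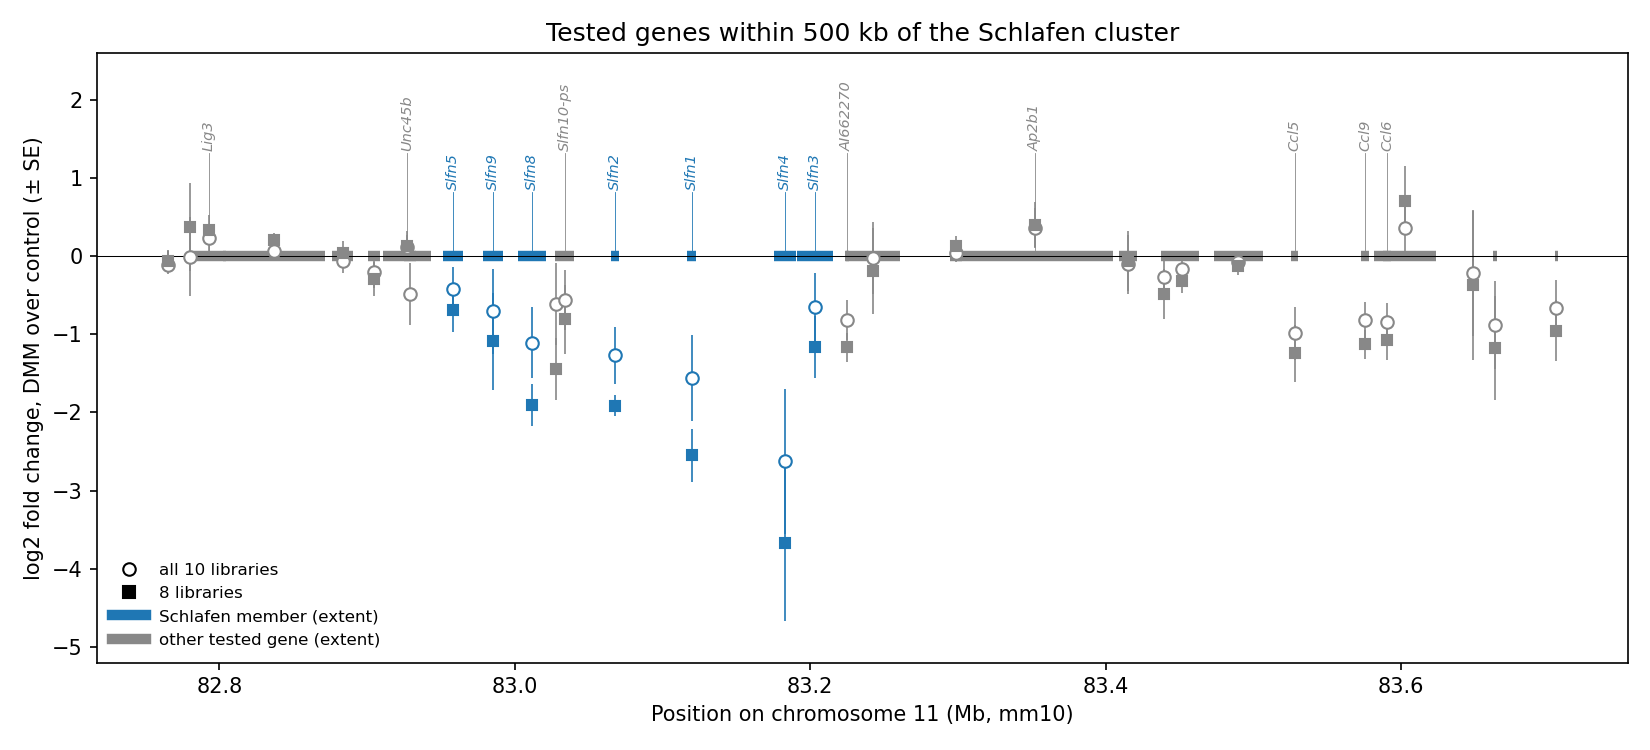
Log2 fold change of DMM over control with its SE (vertical axis) against position on chromosome 11 in Mb (horizontal axis) for the 7 Schlafen genes (blue) and the 25 other genes tested within 500 kb (grey). Open circles are fits over all 10 libraries, filled squares fits over 8, and bars on the zero line show the extent of each gene. Slfn1, at -2.55 over 8 libraries, stands far below Unc45b at 0.13.

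The interferon pathway was followed by role. Interferons bind their receptors, whose kinases activate transcription factors that switch on effector genes, and feedback genes damp the signal. Of the 10 interferon ligand genes listed, 8 had 0 counts in every library, which allows up to 3 counts in a library, and Ifng and Ifnk had 42 and 7 counts in all, so that 0 were tested. Of 6 receptor genes 0 were called over either set. Ifnar2, a chain of the type I receptor, stood at -0.47 on the log2 scale over the 8 libraries with an edgeR adjusted p of 0.0489, a fold under 1.5. Il10rb and Ifngr1 had -0.20 and -0.31 with edgeR adjusted p of 0.452 and 0.329. Of the 3 receptor kinases 0 were called, and Tyk2, Jak1 and Jak2 had log2 fold changes of -0.42, 0.07 and -0.06 over the 8 libraries.

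Of the 8 interferon transcription factors 7 were called over the 8 libraries, all lower, against 3.56% of all tested genes, and Irf3 was not, at an edgeR adjusted p of 0.899. Irf7, the factor that amplifies type I interferon, had 698 ± 219 CPM in control and 144 ± 194 CPM in DMM (SD, n = 5), with a log2 fold change of -3.61 and an edgeR adjusted p of 0.00119 over 8. Irf1 had -1.40 and Irf9, the DNA-binding part of the complex that type I interferon forms, had -1.33, with edgeR adjusted p of 0.0115 and 0.00136. Of 5 feedback genes 2 were called, Usp18 at -3.41 and Socs1 at -2.44 over the 8 libraries, and Irf2 had -0.45 with an edgeR adjusted p of 0.144.

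Among the 24 interferon-induced effectors 23 were called over the 8 libraries, all lower, Eif2ak2 being the exception at an edgeR adjusted p of 0.0618, with a median log2 fold change of -2.83 beside -1.90 for the Schlafen members. Lgals3bp, a secreted glycoprotein, had 912 ± 211 CPM in control and 300.5 ± 231 CPM in DMM (SD, n = 5). Its log2 fold change was -1.60 over 10 libraries with an edgeR adjusted p of 0.378 and -2.19 over 8 with an edgeR adjusted p of 0.00186. Isg20, an antiviral exonuclease, and Ifi44 had -2.30 and -2.83 over 8, with edgeR adjusted p of 0.000255 and 0.000376. Over all 10 libraries 0 genes of the pathway were called by edgeR and 1 by DESeq2, which called 50 of all genes. At an unadjusted p under 0.05 with the same fold in edgeR, 32 of 46 tested passed as lower, against 4.11% of all tested genes. The median level of the 24 effectors, as a percentage of each gene's control median, was 88.9% in DMM replicate 1 and 17.1%, 14.7%, 11.5% and 11.9% in DMM replicates 2 to 5. For the Schlafen members it was 117%, 30.2%, 24.8%, 59.0% and 18%. These percentages, and the CPM of effectors that follow, are without the correction for transcript length and GC share. In DMM replicate 4 that correction lowered Slfn5 from 367 to 244.4 CPM and Slfn9 from 95.7 to 62.6 CPM. It raised Slfn2 there from 42.5 to 58.9 CPM. The effectors differed among themselves in DMM replicate 4, where Eif2ak2 had 147 CPM beside a control mean of 176.6 CPM, Rsad2 109.8 beside 269 CPM and Isg15 5.134 beside 221.8 CPM. Each of the 24 effectors lay below every control of the 8 libraries in all 4 DMM libraries, against 10.6% of tested genes.

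**Figure D3:**
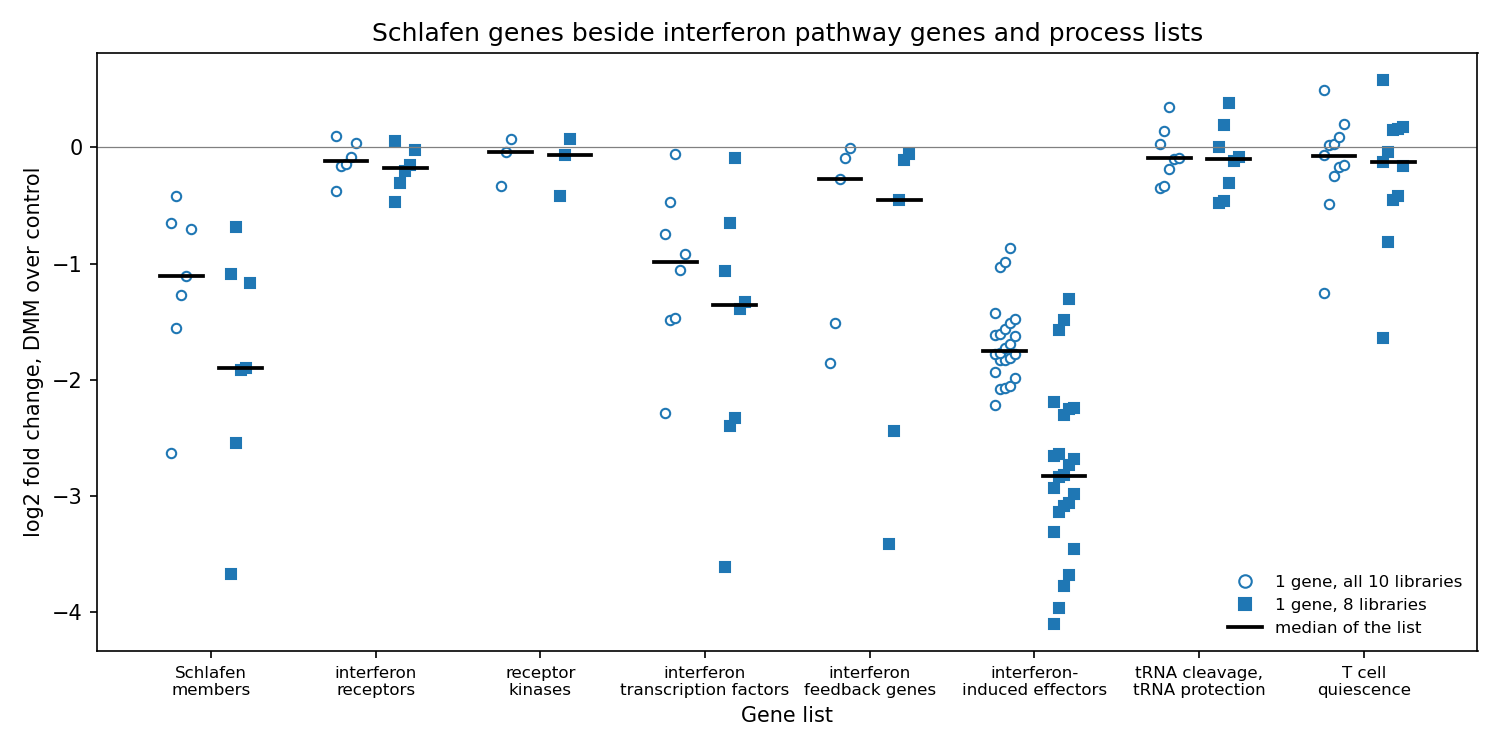
Log2 fold change of DMM over control (vertical axis) of each tested gene in 8 lists (horizontal axis), over all 10 libraries (open circles) and over 8 (filled squares), with the median of each list as a black line. Over 8 libraries the medians are -1.90 for the Schlafen members, -2.83 for interferon-induced effectors and -0.18 for interferon receptors.

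Genes of processes in which Schlafen proteins act were followed as lists. Of 8 genes of tRNA cleavage and protection 0 were called over either set, with a median log2 fold change of -0.10 over the 8 libraries. Nsun2, a tRNA methyltransferase, had a log2 fold change of 0.39 with an edgeR adjusted p of 0.420, and Samd9l had -0.46 with 0.447. Of 11 genes of T cell quiescence 1 was called over the 8 libraries, as lower, against 3.56% of all tested genes, with a median log2 fold change of -0.12. It was Ccr7, the receptor that guides T cells and dendritic cells to lymph nodes, with 11.1 ± 2.20 CPM in control and 4.64 ± 2.50 CPM in DMM (SD, n = 5), a log2 fold change of -1.64 and an edgeR adjusted p of 0.00963. Foxo1 and Klf2, factors of resting T cells, had 0.58 and -0.81 with edgeR adjusted p of 0.261 and 0.109.

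Summed markers of immune cells that can express Schlafen genes were also lower in part of the DMM libraries. The 12 T cell markers, none at 0 and Cd4 the most abundant, summed to 71.1, 75.3, 70.8, 59.0 and 104 CPM in control replicates 1 to 5 and 66.8, 56.9, 23.1, 27.5 and 30.0 CPM in DMM replicates 1 to 5. The 12 monocyte and macrophage markers, with C1qb the most abundant and none at 0, summed to 1894, 1739, 1500, 1826 and 2043 CPM in the controls and 1669, 1192, 973, 1003 and 991 CPM in the DMM libraries. By these sums DMM replicate 1 lay among the controls in both lists. All 5 DMM libraries lay below all 5 controls for 3 of 12 T cell markers, against 1.16% of tested genes. The same held for 1 of 12 monocyte and macrophage markers. Macrophage markers did not move together in DMM replicate 4, where C1qa, C1qb and C1qc had 32.5, 49.35 and 43.25 CPM beside control means of 316, 327 and 249 CPM, while Mrc1, Ccr2, Cx3cr1 and Itgam, at 202, 115.5, 119 and 25.97 CPM, lay above their control means of 112, 101.7, 100.1 and 19.8 CPM. Marker levels here are uncorrected, and in this library levels moved with transcript length and GC share, as described above. The part of that in this split was not tested. Over the 8 libraries 2 of 12 T cell markers and 4 of 12 monocyte and macrophage markers were called as lower, against 3.56% of all tested genes, with median log2 fold changes of -1.17 and -0.81. By the median over the list, T cell markers stood at 96.6%, 75.7%, 30.5%, 33.8% and 41.6% of the control median in DMM replicates 1 to 5, and monocyte and macrophage markers at 93.5%, 68.9%, 50.8%, 68.2% and 50.3%. The part of these cells in the Schlafen levels was not tested.

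The 8 neutrophil markers, with Csf3r the most abundant and none at 0 in every library, summed to 122 CPM in control replicate 4 and 23.4 to 36.8 CPM in the other controls, and to 113 CPM in DMM replicate 4 and 18.8 to 34.8 CPM in the other DMM libraries. Control replicate 4 thus had both the highest Slfn4 and the highest neutrophil markers among controls, and DMM replicate 4 had the second-highest neutrophil sum beside 12.9 CPM of Slfn4. Their part in the level of Slfn4 was not tested, and 0 of the 6 tested neutrophil markers were called.

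Among the other marker lists, with none at 0 in every library, NK and cytotoxic cell markers (8 genes, Nkg7 the most abundant) summed to 13.4 to 27.6 CPM in the controls and 6.97 to 16.3 CPM in the DMM libraries. B cell markers (6 genes, Cd79b) summed to 8.79 to 11.02 and 6.95 to 11.7 CPM, dendritic cell markers (6 genes, Zbtb46) to 55.97 to 64.0 and 35.8 to 64.0 CPM, endothelial markers (6 genes, Pecam1) to 546 to 819 and 599 to 963 CPM, and fibroblast markers (7 genes, Col3a1) to 5181 to 14212 and 3707 to 11102 CPM. Of these 5 lists, 1 B cell marker was called as higher and 1 fibroblast marker as lower over the 8 libraries. The proximal tubule markers named at the start, led by Lrp2, and the 10 markers of other kidney cells, led by Umod at 2790 to 5566 CPM for the list in controls and 2770 to 6349 CPM in DMM, had counts in every library, so the labelled tissue was met by its markers. In the 8 libraries, 3 of 8 proximal tubule markers and 3 of 10 other kidney markers were called as higher, against 2.73% of tested genes.

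By the median over the list, proximal tubule markers stood at 295% of the control median in control replicate 3 and at 67.8%, 215%, 268%, 118% and 301% in DMM replicates 1 to 5. The Schlafen members of control replicate 3 stood at 87.9% of the control median, against 18% to 59.0% in DMM replicates 2 to 5. The share of mitochondrial counts in control replicate 3, 3.66%, was nearer to the 3.79% to 5.62% of those 4 libraries than to the 1.97% to 2.30% of the other controls, and DMM replicate 1 had 2.30%. The part of tissue makeup in the Schlafen levels was not tested.

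Genes outside the family with the most similar profile were found by the root mean square difference of log2 CPM over the 10 libraries, with each gene's mean taken off. Nearest to the mean profile of the 7 members were Rnf213 at 0.194, Trim30b at 0.204, Dtx3l at 0.211, Parp14 at 0.219 and Gbp9 at 0.231, where the median over all genes was 1.07. Slfn2 was closest to Helz2 at 0.0897, Nlrc5 at 0.0984 and Parp9 at 0.105. The nearest to Slfn8 were Ifi203 at 0.0959, Parp14 at 0.156 and H2-T24 at 0.161. Slfn1 came closest to Trim30a at 0.224, Gm12250 at 0.241 and Rsad2 at 0.245, and Slfn5 to Elf4 at 0.122, Zc3hav1 at 0.126 and Cybb at 0.131.

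Slfn3 was nearest to Eif2ak2 at 0.201, Gm8995 at 0.207 and Gm6548 at 0.235. Slfn9 had no gene nearer than F10 at 0.335, F830016B08Rik at 0.339 and Sp140 at 0.350. For Slfn4 the nearest was Acod1 at 0.675, the gene of the enzyme that makes itaconate in activated macrophages, before Rsad2 at 0.911 and 4930430E12Rik at 0.920. Within the family the nearest pair was Slfn2 and Slfn8 at 0.268, followed by Slfn1 and Slfn8 at 0.353 and Slfn3 and Slfn5 at 0.357, and the close copies Slfn8 and Slfn9 were at 0.535. The farthest pair was Slfn4 and Slfn5 at 1.44.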

How the data were processed

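Libraries were made from mRNA of each kidney and run on a NovaSeq X Plus. The authors aligned reads to mm10 with HISAT2 2.0.5 (submitters' processing notes) and deposited raw counts per gene. The counting tool, annotation release and strand setting are not given in the sources used here. The FPKM values that the authors deposited were used for levels between genes. The group means that the authors deposited, a signal in counts divided by size factors, served only to find each library's weight. The deposited log2 fold changes, p-values and adjusted p-values of the authors' DESeq2 comparison were not used. Other deposited columns, such as gene length in base pairs and position, describe each gene. Columns of per-sample values not used numbered 0.

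Counts were filtered (filterByExpr), scaled by TMM and tested in edgeR 4.0.16 (R 4.3.3) without covariates. DESeq2 1.42.0, limma 3.58.1 on log2(FPKM + 0.1) and exact permutation were alternatives, with RLE factors, library size alone, no filter, the replicate number as a block, other thresholds, summed copies and each library left out. The GC and length correction, a loess fit to the longest GENCODE M21 transcripts for 16491 of 16505 genes, was added after the data were seen. SEs were derived from each F statistic with its log2 fold change, and likeness used log2 CPM with a prior count of 2. The steps were tested on simulated data. The 10 columns of counts held 0 identical pairs. The libraries carry no molecular identifiers that the sources name, so reads are not independent molecules.

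Members and lists were chosen with earlier results of these data known. Named genes were every member, other genes named Slfn, the nearest tested neighbours and those with an unadjusted p under 0.05, the 3 genes of smallest p per list over 10 libraries, the most abundant marker per list, and the nearest profiles (3 per member and 5 for their mean). Of the genes so chosen, 1 is not reported here. Other genes that are named were chosen after their values were seen.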

Additional observations from a re-analysis of the deposited data

Results flagged for a closer look

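In 5 of the 14 groups of 5 libraries (7 members in 2 groups), 1 library's distance to its nearest neighbour exceeded the critical share of the whole range for 5 values, 0.71. Chance alone marks about 1 in 20 groups, and the 14 are not independent, since the members share libraries.

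DMM replicate 1 was marked for 3 members. It had 42.4 CPM of Slfn1, where the next DMM library had 13.5, 136 CPM of Slfn2, where the next had 42.5, and 88.0 CPM of Slfn8, where the next had 33.4. Control replicate 4 was marked for Slfn4, at 198 CPM with the next control at 35.2, and for Slfn3, at 15.7 CPM with the next control at 12.4. For Slfn9 and Slfn5, DMM replicates 1 and 4 were both high, so that no single library was marked.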

How the results depend on the processing

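No alternative turned the direction of a member's log2 fold change: of 242 single values, 223 kept their side of the threshold (1 of them, Slfn9 in DESeq2 over the 8 libraries, without a p), 12 passed it and 7 no longer did. The count of called members over all 10 libraries, 0, became 3 over the 8 libraries and 4 at an unadjusted p under 0.05, and leaving out 1 library gave 0 to 3, with 3 only without DMM replicate 1. Over the 8 libraries the count of 3 became 5 with DESeq2, 5 with the GC and length correction and 0 by exact permutation. At an unadjusted p under 0.05 it became 6, where 1198 of all 16550 tested genes passed as lower with the same fold. Leaving out 1 of the 8 libraries gave 3 to 7, with 7 only without DMM replicate 4.

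The genes called over all 10 libraries were 50 with DESeq2, against 0 with edgeR and, at an unadjusted p under 0.05 with the same fold, 315 higher and 678 lower, and 1042 over the 8 libraries. Leaving out 1 library gave 0 to 486, with 486 without DMM replicate 1. Over the 8 libraries DESeq2 called 1660 and exact permutation 0, and leaving out 1 gave 407 to 2410: 2410 without DMM replicate 4, 494 and 470 without DMM replicates 3 and 5, and 592, 547, 477 and 407 without control replicates 1, 2, 4 and 5. Interferon pathway genes called were 0 over all 10 libraries, 1 with DESeq2, 32 over the 8 and 0 to 31 without 1 library, 31 being without DMM replicate 1. Over the 8 they were 0 by exact permutation and 29 to 32 without 1 library. Neighbouring genes called were 0 over all 10, 3 over the 8 and 0 to 2 without 1 library, and over the 8 they were 6 with DESeq2, 0 by exact permutation and 2 to 9 without 1 library. The smallest exact p is 0.00794 with 10 libraries and 0.0286 with 8, too large to pass the adjustment here, and the cause of the other changes was not tested.

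With the replicate number as a block, 0 of 7 members, 0 of all genes, 0 interferon pathway genes and 0 neighbours were called over the 8 libraries, and 0 of each over all 10. In edgeR over the 8, Slfn2 had an adjusted p of 0.0561, Slfn1 0.0825 and Slfn8 0.0900. Their log2 fold changes were -1.95, -2.64 and -1.92, beside -1.91, -2.55 and -1.90 without the block. Among the 8, numbers 1 and 3 had 1 library each, so only numbers 2, 4 and 5 informed the blocked difference, with few degrees of freedom left. The correlations of same-numbered deviations were -0.06, 0.0792, 0.341, 0.124 and -0.223, and 1 of 5 controls matched its own number best. These values show no sign that the numbers pair the mice, but so few cannot exclude it.

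Depth was ample for the members, with at least 37 counts in every library. The main limit is the unstated reason for the 2 libraries without weight. Close copies among the members are a possible limit, though few of their stretches, as counted above, were also found in another gene. The share was 3.39% for Slfn8, 3.71% for Slfn9, 2.92% for Slfn3 and 0.271% for Slfn4. The most common partner was Slfn10-ps for Slfn8 and Slfn9 and Gm11427 for Slfn3 and Slfn4. How many reads were misassigned was not tested. A further limit is the 1 DMM library that decides 4 of the calls in the main edgeR fit over the 8 libraries.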
